A study of Mus musculus with 3 samples.

Results

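Fenestrated endothelial cells line permeable vessels, including those of the hypothalamus. Here they were chosen by their counts of unique molecular identifiers (UMIs, each standing for 1 captured RNA molecule). The vessels that the chosen cells came from were not measured. A cell barcode needed at least 500 UMIs, at most 20% mitochondrial UMIs, at least 3 UMIs of Plvap, at least 1 UMI in 3 or more of the endothelial genes Pecam1, Egfl7, Cdh5, Emcn, Esam and Flt1, and fewer than 2 UMIs in each of 7 genes of other cells (Kcnj8, Myh11, P2ry12, Aqp4, Ccdc153, Mog and Dcn). This rule gave 141 cells of 36467 kept barcodes, with 61 in the intake-matched control library (PF), 75 in the heat-exposed library (HS) and 5 in the recovery library (QS). Endothelial cells that met the same rule with 0 Plvap UMIs came to 10910 and served as the comparison within each library (3939, 3726 and 3245 in the order PF, HS, QS).

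The study asked whether heat exposure leaves lasting differences in the cell makeup and transcription of the mouse hypothalamus. All 3 libraries came from male mice aged 8 weeks, and their hypothalami were digested with collagenase II, broken up mechanically and run on the 10x 3′ kit with version 3 chemistry. PF mice had their food matched to the intake of heat-exposed mice, HS mice were taken in the heat-exposed state, and QS mice were taken in recovery after exposure; mice kept under the RT condition were assigned in the study but were not analysed here. Each condition had 1 library. The strain, the number of mice per library, the temperature and duration of exposure and the length of recovery do not appear in the sources used here. A difference between HS and PF therefore has no replicate check, and condition and library cannot be told apart.

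Most brain vessels carry a blood-brain barrier: tight junctions seal the endothelial cells, transporters carry nutrients through them, and Wnt signals from neighbouring cells maintain this state. Vessels of the median eminence and other circumventricular organs lack it. Their endothelium is perforated by fenestrae that are spanned by diaphragms built of the Plvap protein, and VEGF signalling through Kdr keeps the fenestrae open. Such vessels let hormones pass between the blood and the hypothalamus.

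The 5 genes that mark these cells were all present. Plvap stood at 2775 CPM (UMIs per 1000000 of the cells' summed UMIs) in PF, 2659 in HS and 2189 in QS. Emcn, a sialomucin of capillary and venous endothelium, stood at 2323, 2001 and 2445 CPM against 652, 677 and 746 in Plvap-0 cells of PF, HS and QS, while Pecam1, a junction protein of all endothelium, was nearly level at 881, 995 and 881 against 803, 808 and 797. Egfl7, an endothelial secreted factor, stood at 1384, 1233 and 2303 CPM against 1366, 1037 and 1520, and Cdh5, the cadherin of endothelial junctions, at 528, 500 and 654 against 342, 350 and 350. All of these genes chose the cells, so their levels are a description. In PF, 52 of 61 cells held all 6 endothelial genes of the rule, as did 58 of 75 in HS and 4 of 5 in QS.

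The Plvap threshold cut through a sparse range. Endothelial cells with 1 Plvap UMI came to 77 (PF), 54 (HS) and 21 (QS), and those with 2 Plvap UMIs came to 4, 10 and 3. Just inside the threshold, 1, 4 and 1 cells had 3 or 4 Plvap UMIs, whereas the median over the chosen cells was 14, 18 and 13 UMIs in the order PF, HS, QS, and the highest cells had 85, 58 and 26. Cells with 1 or 2 Plvap UMIs were deep, with a median of 12103 UMIs in PF, and resembled barrier endothelium in their summed counts: in PF they held 3604 CPM of Cldn5 and 3.16 CPM of Esm1, against 409 and 640 in the chosen cells. Single Plvap UMIs also occurred outside the endothelium, in 1.0% to 3.11% of cells marked by P2ry12, Aqp4 or Mog, while 3 or more UMIs were found in 0% to 0.486% of them.

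Across the 3 libraries, total UMIs were 93295920 to 103891747 in 11720 to 12836 barcodes. Scrublet, a doublet caller, marked 5.4% to 6.39% of kept barcodes, including 1 of the chosen cells, which was in HS. The libraries shared 37 to 51 barcodes pair by pair. Median UMIs per chosen cell came to 6446, 5145 and 4796 for PF, HS and QS, against 5592, 5761 and 5394 in Plvap-0 cells, and median mitochondrial shares were 1.87%, 1.69% and 1.40% against 2.31%, 2.18% and 1.94%. Another 44 barcodes passed the Plvap and endothelial parts of the rule (20 in PF, 23 in HS and 1 in QS) but held 2 or more UMIs of a gene of another cell type, and were left out.

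Fenestrated cells made up a similar share of the control and heat-exposed libraries and a far smaller share of the recovery library. They were 0.482% of kept barcodes in PF (95% exact Clopper-Pearson interval 0.369 to 0.619), 0.610% in HS (0.480 to 0.763) and 0.0434% in QS (0.0141 to 0.101). The QS interval lay below the other 2, which overlapped. The HS share was 1.26 times the PF share (counting interval 0.889 to 1.80), and the QS share was 0.0900 times the PF share (0.0282 to 0.222). Of endothelial cells alone they were 1.49%, 1.94% and 0.153%, although endothelial cells as a whole were 32.3%, 31.4% and 28.4% of barcodes. Intervals cover counting error only.

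Cells with fibroblast genes and endothelial cells with little Plvap were also scarcer in QS. Barcodes with 2 or more UMIs in each of at least 2 of 5 fibroblast genes (Dcn, Col1a1, Col1a2, Lum and Col3a1) made up 3.01%, 3.08% and 0.851% of PF, HS and QS, the last being 0.283 times the PF share, and endothelial cells with 1 or 2 Plvap UMIs were 1.98%, 1.66% and 0.733% of endothelial cells. Pituitary genes, summed over all kept barcodes, held 312 CPM in PF, 1318 in HS and 22.8 in QS. The part of these differences in the fenestrated cells' share was not tested. Fewer cells captured and fewer cells present cannot be told apart from 1 library per condition.

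**Figure D1:**
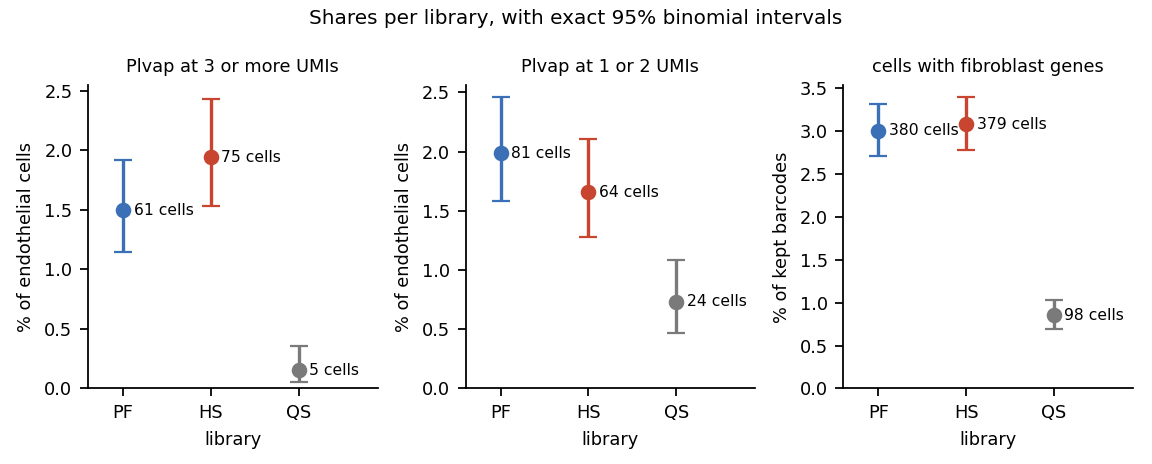
Shares by library (x axis) of fenestrated cells (Plvap at 3 or more UMIs) and of cells with 1 or 2 Plvap UMIs, both in percent of endothelial cells, and of cells with fibroblast genes in percent of kept barcodes, with bars for exact 95% intervals. QS lies below the intervals of PF and HS in each panel, with 0.153% fenestrated cells against 1.49% and 1.94%.

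The next comparison asked how fenestrated cells differ from barrier endothelium of the same library. Summed UMIs of the 2 cell groups in PF and HS were compared with edgeR's quasi-likelihood test, with the library as a block and Benjamini-Hochberg adjustment over all genes, and a gene was called at an adjusted p under 0.05 and a fold of at least 2. QS had under 10 cells and is given as values. The fit had 1 residual degree of freedom, so the p-values rest mostly on a spread pooled over all genes and little on each gene's own. Each SE given with an edgeR result was worked back from the test. It is the absolute log2 fold change divided by the square root of the F statistic, and not a spread between libraries. The 2 libraries also differ in condition. Of 15509 genes tested, 863 were higher in fenestrated cells (5.56%) and 874 were lower (5.64%), and the median log2 fold change over all genes was -0.13.

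Genes known from fenestrated or other permeable vessels formed the group with the most members higher. Of its 13 genes, 10 were higher (against 5.56% of all genes) and 1 lower, with a median log2 fold change of 4.44. Esm1, a proteoglycan secreted by VEGF-stimulated endothelium, stood at 640 CPM in PF, 439 in HS and 824 in QS, against 0.605, 0.102 and 0.610 in Plvap-0 cells. Every library of fenestrated cells was far above every library of Plvap-0 cells, and the log2 fold change was 10.51 (SE 0.22, edgeR's quasi-likelihood test, adjusted p = 1.8e-54). Plpp3, an enzyme that breaks down lipid phosphates such as lysophosphatidic acid, stood at 2020, 1735 and 3838 CPM against 54.7, 60.1 and 59.1 (log2 fold change 4.98, SE 0.13, edgeR adjusted p = 1.7e-48). Its relative Plpp1 gave 4.44 on the same scale.

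Igfbp3, a carrier of insulin-like growth factors, held 1577 CPM in PF, 2490 in HS and 1990 in QS against 38.7, 54.7 and 39.9 in Plvap-0 cells (log2 fold change 5.38, SE 0.13, edgeR adjusted p = 6.9e-51). Exoc3l2, which is linked to VEGF receptor trafficking, held 223, 247 and 313 CPM against 0.572, 0.643 and 0.651. Again the ranges did not overlap. Gpihbp1, which anchors lipoprotein lipase on capillary walls of peripheral tissues, held 148, 180 and 85.3 CPM in fenestrated cells of PF, HS and QS. In PF and HS together it had 176 UMIs there and 3 UMIs in Plvap-0 cells, a ratio of 3249 with a counting interval of 1094 to 15907. Cd300lg, a receptor of capillary endothelium, gave a log2 fold change of 7.10, Ramp3, a partner of adrenomedullin receptors, 3.94, and Rgcc, a cell-cycle regulator, 2.09. Vwa1, an extracellular matrix protein, was the member that was lower, at 158, 218 and 284 CPM against 708, 719 and 853 (log2 fold change -1.99). Aplnr and Cd36 passed in neither direction.

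Btnl9, a butyrophilin-like membrane protein, was not on any list and ranked first by fold change among genes higher in fenestrated cells with a level of 50 CPM or more. Its levels were 97.6, 108 and 85.3 CPM in PF, HS and QS, and 0 UMIs were found in the Plvap-0 cells of PF and HS. Against a floor of 3 UMIs over those cells, its level was at least 2031-fold higher. Others in the first 12 were Col13a1, a transmembrane collagen, at 8.86 on the log2 scale, Chrm3, a muscarinic acetylcholine receptor, at 8.61, Aqp1, a water channel also abundant in choroid plexus epithelium, at 8.43, Penk, the precursor of enkephalins, at 8.37, the homeobox gene Meis2 at 7.88 and the mechanosensitive channel Piezo2 at 7.47. Ces2e, a carboxylesterase, gave 8.83 and Fam167b gave 8.58.

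Detection in single cells was compared at equal depth. After each cell was thinned to 2000 UMIs, Esm1 was detected in 51.7% of fenestrated cells in PF and 36.5% in HS, against 0.0298% and 0.0306% of Plvap-0 cells. Plpp3 was detected in 95% and 87.8% against 8.31% and 9.39%. Cldn5 went the other way, with 23.3% and 23% against 96.8% and 95.8%. Without thinning, Esm1 was found in 44 of 61 PF cells and 43 of 75 HS cells.

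**Figure D2:**
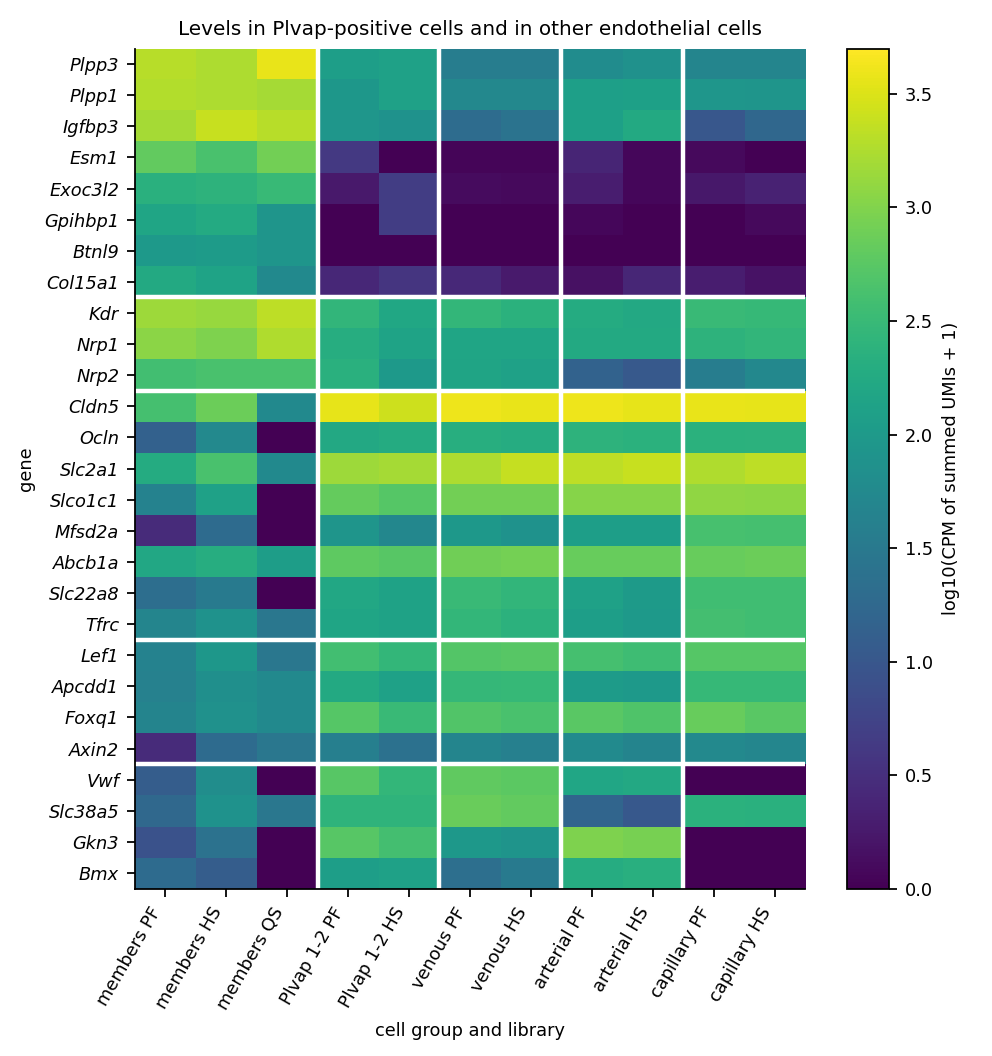
Heat map of log10(CPM + 1) for 27 genes (rows of the map) in fenestrated cells (members), cells with 1 or 2 Plvap UMIs, and the venous-rule, arterial-rule and capillary-rule subsets of Plvap-0 cells, with 1 column for each library. Esm1 is 640 CPM in PF members and 0.136 to 1.45 CPM in the 3 Plvap-0 subsets of PF, whereas Cldn5 is 409 against 3812 to 4071. Vwf, Gkn3 and Bmx are 0 in capillary-rule cells because the rule required it.

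Most transporter genes of the barrier were lower. Among 21 blood-brain barrier transporter genes, 17 were lower in fenestrated cells (against 5.64% of all genes) and 0 higher, with a median log2 fold change of -2.31. Slc2a1, the glucose transporter of barrier endothelium, held 188 CPM in PF, 428 in HS and 56.9 in QS against 1762, 2178 and 2014 (log2 fold change -2.79, SE 0.14, edgeR adjusted p = 5.7e-30). Mfsd2a, the lipid carrier that limits vesicle transport in brain capillaries, held 1.88, 18.6 and 0 CPM against 151, 145 and 211 (log2 fold change -3.90, SE 0.31, edgeR adjusted p = 1.6e-18). Every library of fenestrated cells was below every library of Plvap-0 cells for both. The organic anion carriers Slco1c1, Slco1a4 and Slc22a8 gave -3.55, -2.98 and -3.42, the cationic amino acid carrier Slc7a1 gave -2.31, the drug exporter Abcb1a gave -2.03 and the transferrin receptor Tfrc gave -2.09. The members that were not called were Abcg2, Abcc4, Slco2b1 and Slc3a2.

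Of 9 tight junction genes tested, 4 were lower, against 5.64% of all genes, and 0 higher. Cldn5, the main claudin of brain endothelium, held 409 CPM in PF, 727 in HS and 56.9 in QS against 3696, 3468 and 4565 (log2 fold change -2.74, SE 0.13, edgeR adjusted p = 2.3e-30). Ocln, another strand protein, gave -2.74, the tricellular junction gene Lsr gave -2.15 and the scaffold gene Tjp1 gave -1.71. The caveolar genes were mostly not called: 1 of 8 was higher, Ehd4, a membrane-remodelling ATPase, at 1021, 625 and 995 CPM against 102, 105 and 94.9, while Cav1, the caveolar coat protein, held 195 CPM in PF and 160 in HS against 288 and 260.

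Of 20 Wnt pathway genes, 13 were lower (against 5.64% of all genes) and 2 higher (against 5.56%), with a median log2 fold change of -1.36. Transcription factors and targets of the pathway were among the lower genes: Lef1, a TCF/LEF factor, held 43.2 CPM in PF, 89.3 in HS and 28.4 in QS against 485, 481 and 565 (log2 fold change -2.93, SE 0.18, edgeR adjusted p = 1.3e-24). The feedback targets Apcdd1, Axin2 and Nkd1 gave -2.17, -2.27 and -2.51, and the transcription factors Foxq1 and Foxf2 gave -3.16 and -1.66. Adgra2 and Reck, which together receive Wnt7 ligands at brain endothelium, gave -1.30 and -2.23. The higher pair was Tspan12, a co-receptor of the norrin pathway, at 1.54, and Tcf7l1, a TCF/LEF member that often represses targets, at 1.20.

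Promoters were searched for the letters read by TCF/LEF factors, ETS factors, the glucocorticoid receptor and heat shock factors. The TCF/LEF letters are shown because Wnt target genes were among the lower genes. The promoters of 4 genes are printed as examples and were not picked by rank. Esm1 and Plpp3 were higher in fenestrated cells, and the barrier transporter genes Mfsd2a and Slc19a3 (a thiamine carrier, log2 fold change -2.61) were lower. Plpp3 and Slc19a3 were not among the 12 highest or 12 lowest genes. Both transporter genes shown are among the transporter genes with a match that are named below. Each is the 250 bases before a RefSeq start on GRCm38.p6, 5′ to 3′ on the gene's strand, and capitals mark CTTTGA or its reverse complement TCAAAG, the core letters read by the TCF/LEF factors of the Wnt pathway. The windows are chr13:113209409-113209658 (plus strand) for Esm1, chr4:105157097-105157346 (plus) for Plpp3, chr4:122961189-122961438 (minus) for Mfsd2a and chr1:83038449-83038698 (minus) for Slc19a3. The Mfsd2a window also holds an exon of the noncoding gene 4933421A08Rik on the other strand in GENCODE vM21.
Esm1: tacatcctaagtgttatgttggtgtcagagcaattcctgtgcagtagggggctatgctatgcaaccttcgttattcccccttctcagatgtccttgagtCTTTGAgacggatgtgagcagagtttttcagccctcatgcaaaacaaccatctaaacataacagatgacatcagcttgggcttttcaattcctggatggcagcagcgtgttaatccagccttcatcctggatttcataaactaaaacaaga
Plpp3: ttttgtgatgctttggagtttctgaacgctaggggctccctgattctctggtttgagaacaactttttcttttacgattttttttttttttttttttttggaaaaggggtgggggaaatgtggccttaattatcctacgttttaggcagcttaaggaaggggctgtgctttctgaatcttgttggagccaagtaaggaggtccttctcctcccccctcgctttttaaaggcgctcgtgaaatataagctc
Mfsd2a: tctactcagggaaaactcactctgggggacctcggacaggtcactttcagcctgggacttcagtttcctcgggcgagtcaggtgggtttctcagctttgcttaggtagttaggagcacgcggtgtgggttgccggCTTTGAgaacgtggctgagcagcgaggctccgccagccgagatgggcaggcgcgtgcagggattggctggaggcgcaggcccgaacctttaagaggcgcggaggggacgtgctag
Slc19a3: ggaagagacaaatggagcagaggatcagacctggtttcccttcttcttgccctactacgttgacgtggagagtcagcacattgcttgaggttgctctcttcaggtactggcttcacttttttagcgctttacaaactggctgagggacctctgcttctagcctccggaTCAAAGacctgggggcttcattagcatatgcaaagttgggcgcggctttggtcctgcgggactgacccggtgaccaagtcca
Mfsd2a, Slc19a3 and Esm1 held 1 match each and Plpp3 held 0. The TCF/LEF letters occurred in 13.8% of the 32817 promoters searched and in 6 of 17 barrier transporter genes found there (Abcb1a, Mfsd2a, Slc19a3, Slc39a10, Slc3a2 and Slc7a1). They occurred in 1 of 8 permeable-vessel genes (Esm1), 1 of 8 tight junction genes and 1 of 11 Wnt pathway genes. They also occurred in 2 of 20 chaperone genes and 3 of 16 glucocorticoid response genes. In each of these lists the ETS, glucocorticoid receptor and heat shock factor letters matched 0 to 2 genes. The 13.8% counts starts, whereas a listed gene counted once if any of its starts held a match, so the shares are not directly comparable. A match is a description of letters in this window and not a measured binding site.

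Several VEGF receptor genes were higher. Kdr, the main signalling receptor for VEGF, held 1418 CPM in PF, 1367 in HS and 2132 in QS against 255, 234 and 332 (log2 fold change 2.46, SE 0.11, edgeR adjusted p = 2.8e-31). All fenestrated libraries lay above all Plvap-0 libraries. The co-receptors Nrp1 and Nrp2 gave 2.35 and 2.63, the receptor Flt4 gave 1.26 and the Tie2 ligand Angpt2 gave 1.94, while the ligand gene Vegfd was lower at -3.01 with just 2 UMIs in fenestrated cells. In all, 5 of 13 genes of the VEGF and angiopoietin system were higher and 1 lower, beside 5.56% of all genes higher and 5.64% lower. Tek and Tie1 were not called (log2 fold changes -0.16 and 0.43). Of 10 genes of tip and angiogenic endothelium, 5 were higher and 0 lower: Esm1, Angpt2, Trp53i11 (4.87), Apln (2.78) and Mcam (1.52). Esm1 was also on the list of permeable-vessel genes and Angpt2 on the VEGF list. None of 8 proliferation genes was called, with a median log2 fold change of 0.06.

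Markers of vessel position were mostly lower, against 5.64% of all genes lower and 5.56% higher. Among venous genes 6 of 10 were lower and 0 higher, among arterial genes 5 of 11 were lower and 1 higher (Efnb2, an arterial ephrin, at 1.70), and among capillary genes 8 of 9 were lower and 1 higher (Rgcc). The capillary count is not independent of earlier lists. Mfsd2a, Slc16a1, Slc7a5, Tfrc and Slco1c1 were also on the transporter list, and Rgcc on the list of permeable-vessel genes. Vwf, the clotting factor carrier of larger vessels, gave -2.55, and Ackr1, a chemokine receptor of venules, gave -1.41. Gkn3, an arterial gene of brain, gave -3.88. Genes for leukocyte adhesion gave 4 of 8 lower and 0 higher, with the adhesion receptors Vcam1 and Icam1 at -2.51 and -1.11. In Ackr1 a single cell held 83.3% of the fenestrated cells' UMIs in PF and 48.4% in HS.

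Receptors and enzymes for signals from the blood went both ways, with 4 of 23 higher and 4 lower, beside 5.56% and 5.64% of all genes. Ednrb, an endothelin receptor, held 237 CPM in PF, 255 in HS and 171 in QS against 8.91, 8.57 and 10.1 (log2 fold change 4.76, SE 0.18, edgeR adjusted p = 2.3e-37). Npr3, the clearance receptor of natriuretic peptides, gave 5.95 with a UMI in 4 PF cells and 10 HS cells, and Ptgs1, the constitutive cyclooxygenase, gave 4.55. The inducible prostaglandin enzymes Ptgs2 and Ptges gave -1.69 and -2.17, the interleukin receptor gene Il6ra gave -1.92 and Igf1r, the receptor of insulin-like growth factor, gave -2.14. The leptin receptor gene Lepr was not called, at 9.39, 18.6 and 28.4 CPM against 15.0, 17.2 and 15.5, and neither was the insulin receptor gene Insr at 297, 391 and 56.9 against 162, 200 and 154.

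Basement membrane genes also divided, with 4 of 15 higher and 2 lower, beside 5.56% and 5.64% of all genes. Col15a1, a collagen of capillary basement membranes outside the brain, held 175 CPM in PF, 141 in HS and 56.9 in QS against 1.24, 1.12 and 0.366 (log2 fold change 7.0, SE 0.35, edgeR adjusted p = 1.4e-29). The laminin chain Lamb1, the proteoglycan perlecan (Hspg2) and nidogen (Nid1) gave 4.38, 2.21 and 1.94. Fibronectin (Fn1) and Col18a1 gave -2.56 and -2.38. The 2 multiplexin collagens on the list, Col15a1 and Col18a1, thus lay on opposite sides.

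All 5 genes called among 16 of antigen presentation belonged to the class II pathway, and all were higher. Over all genes, 5.56% were higher and 5.64% lower. H2-Aa, a class II chain, held 240 CPM in PF, 221 in HS and 56.9 in QS against 48.7, 46.3 and 19.2 (log2 fold change 2.23, SE 0.16, edgeR adjusted p = 3.4e-21). Against Plvap-0 cells matched on their number of UMIs the log2 fold change was 5.11. H2-Ab1 and H2-Eb1, the other chains, gave 2.38 and 1.99, the invariant chain Cd74 gave 1.81 and Ciita, the master activator of class II genes, gave 4.46. After thinning, H2-Aa was detected in 33.3% and 24.3% of fenestrated cells in PF and HS against 3.52% and 2.05% of Plvap-0 cells. Genes of microglia and macrophages, which also carry class II, were measured in the same sums: 1 of 7 microglia genes was higher (Cx3cr1, 1.36), with list sums of 680, 389 and 313 CPM against 581, 452 and 367, and 4 of 5 border macrophage genes were lower, with list sums of 5.63, 1.86 and 0 CPM against 83.2, 50.9 and 28.5. Mrc1, a defining gene of border macrophages, was at 0 in the fenestrated cells of PF and HS.

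Most interferon and chaperone genes were not called, where 5.56% of all genes were higher and 5.64% lower. Of 26 interferon genes 4 were higher (Ifit2 at 2.69, Rsad2 at 1.62, Ifit1 at 1.45 and Irf1 at 1.33) and 2 lower (Ifitm1 and Oas1a), and of 26 heat shock and chaperone genes 0 were higher and 1 lower (Hspb8 at -1.21).

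Markers of further cell types were given by the same fit, in which 5.56% of all genes were higher and 5.64% lower. Pericyte genes gave 2 of 6 higher, Rgs5 at 481 CPM in PF, 385 in HS and 1962 in QS against 66.3, 60.4 and 57.1, and Ndufa4l2 at 1.40 on the log2 scale; list sums were 685, 439 and 2047 CPM against 213, 172 and 166. Rgs5 was found in 26 of 61 PF cells and 24 of 75 HS cells. Its source in these cells was not tested. Astrocyte genes gave 1 of 6 higher, the gap junction gene Gja1 at 2.15, and 3 lower, and genes of oligodendrocytes, ependymal cells, fibroblasts and neurons gave 0 calls each way. The rule had left out cells with 2 or more UMIs of Mog, Ccdc153 or Dcn from both cell groups. The lack of calls in the first 3 of these lists was therefore partly set by the choice of cells. Neuron genes had few UMIs, with sums of 9.39 CPM in PF and 33.5 in HS against 25.7 and 18.9. Red blood cell genes summed to 41.3, 46.5 and 28.4 CPM against 1272, 1393 and 3644, with 4 of 5 lower. Pituitary genes gave 4 of 8 lower, with sums of 31.9, 59.5 and 0 CPM against 109, 865 and 33.6.

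Among the 12 lowest genes, Lmntd1 had 0 UMIs in fenestrated cells and 66.0, 57.9 and 102 CPM in Plvap-0 cells of PF, HS and QS, and was at least 22.1-fold lower by the floor of 3 UMIs. St8sia6, a sialyltransferase, had 3 UMIs in fenestrated cells of PF and HS, and its level in Plvap-0 cells was 20.1 times higher (6.88 to 97.6). The noncoding RNA Meg3 gave -4.12, Ism1 gave -3.97, Spaar gave -3.95, the phospholipase gene Pla2g4a gave -3.94 and the sphingolipid enzyme gene Degs2 gave -3.82. Cga and Chgb, both abundant in pituitary cells, were also among the lowest, and Plvap-0 cells of PF held 38.2 CPM of Cga while those of HS held 295. Among cholesterol synthesis genes 7 of 18 were lower, including Cyp51 at -2.05, and 0 higher, beside 5.64% of all genes lower.

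Fenestrated cells varied widely in their barrier genes. Per 10000 UMIs of a cell, the sum of 24 barrier genes had a median of 23.9 in PF (10.1 to 123), 22.7 in HS (8.63 to 176) and 21.3 in QS (15.3 to 52.1), whereas the median of Plvap-0 cells was 164, 167 and 191. The sum of 13 permeable-vessel genes had a median of 102, 101 and 146 against 13.8, 14.5 and 15.9. It was above the 95th percentile of Plvap-0 cells in 59 of 61, 72 of 75 and 5 of 5 cells of PF, HS and QS. A minority reached into the barrier range: 7 PF cells, 9 HS cells and 0 QS cells lay above the 5th percentile of Plvap-0 cells for the barrier sum.

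Cldn5 showed the spread most plainly. It went undetected in 33 of 61, 47 of 75 and 3 of 5 cells of PF, HS and QS, against 2.61%, 3.33% and 1.94% of Plvap-0 cells. At the other end, 7 PF cells and 9 HS cells with 10 or more Cldn5 UMIs held 85.8% and 92.1% of all Cldn5 UMIs of the fenestrated cells. The source of their Cldn5 RNA was not tested. Without them the log2 fold change against Plvap-0 cells was -5.63 for Cldn5, -4.61 for Slc2a1 and -4.69 for Lef1.

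**Figure D3:**
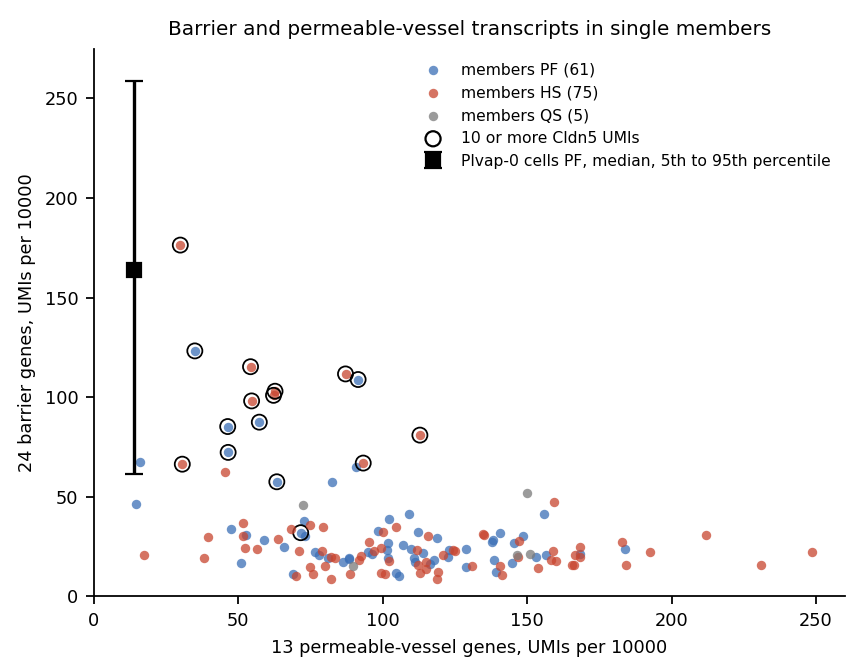
Each point is 1 fenestrated cell (member), with the sum of 24 barrier genes (y axis) against the sum of 13 permeable-vessel genes (x axis), both in UMIs per 10000, coloured by library and ringed where the cell had 10 or more Cldn5 UMIs. The square and bar give the median and the 5th to 95th percentile of barrier sums in Plvap-0 cells of PF, and most members lie below that bar and to its right.

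Within the fenestrated cells, Esm1 and Meis2 marked different but overlapping sets. The split by these genes was chosen after their values were seen and is given with no test. Of 61 PF cells, 24 held a UMI of Esm1 alone, 13 of Meis2 alone, 20 of both and 4 of neither, and of 75 HS cells the numbers were 18, 25, 25 and 7. All 5 QS cells held Esm1 and none held Meis2. A single UMI decided the class of some cells, with 4 PF and 11 HS cells at 1 Esm1 UMI and 4 and 3 at 1 Meis2 UMI. Median UMIs were 6060, 6685 and 9514 in the Esm1-only, Meis2-only and double-positive cells of PF, and 4685, 5598 and 5718 in those of HS, so cells with both genes were the deepest.

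Meis2-only cells had the highest level of class II RNA in both libraries. The sum of H2-Aa, H2-Ab1, H2-Eb1 and Cd74 was 203 CPM in Esm1-only cells, 1036 in double-positive cells and 3126 in Meis2-only cells of PF, and 302, 594 and 2805 CPM in those of HS. Double-positive cells lay between the Esm1-only and Meis2-only cells in each library. The few cells with neither gene held 463 CPM in PF (4 cells) and 1181 in HS (7 cells). In each library this was above the Esm1-only cells, and in HS also above the double-positive cells. Cd74 was found in 25 of 25 Meis2-only cells of HS and in 3 of 18 Esm1-only cells. Over all 141 cells, H2-Aa was found in 31 of 92 cells with Esm1 and in 38 of 49 without it.

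Igfbp5 followed Meis2, and Penk followed Esm1. Igfbp5, another binding protein of insulin-like growth factors, held 0 CPM in Esm1-only, 112 in double-positive and 652 in Meis2-only cells of PF, and 40.3, 130 and 920 in those of HS. Among these classes it was lowest in Esm1-only cells and highest in Meis2-only cells of each library. Penk went the opposite way, at 1305, 46.7 and 0 CPM in PF and 554, 256 and 0 in HS. These levels rest on few cells. Penk was found in 3 double-positive cells of each library, and 1 cell held 29.2% of its PF and 51.7% of its HS UMIs. Over all libraries Penk was detected in 25 of 141 cells, and all 25 also held Esm1, which 92 of the 141 held.

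Gpihbp1 was found with Esm1 in 45 of its 55 cells. It was lowest in Meis2-only cells, at 33.7 CPM in PF and 38.9 in HS, against 86.3 and 332 in Esm1-only cells. Double-positive cells held 266 CPM in PF, above the Esm1-only cells, and 211 in HS, below them. Kdr differed less between the classes, at 1142, 1806 and 1282 CPM in Esm1-only, double-positive and Meis2-only cells of PF and 1268, 1740 and 862 in those of HS. Plpp3 was higher in Esm1-only cells, at 2168 and 2708 CPM in PF and HS, than in Meis2-only cells, at 1316 and 991. Double-positive cells held 2291 and 1887 CPM of Plpp3.

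**Figure D4:**
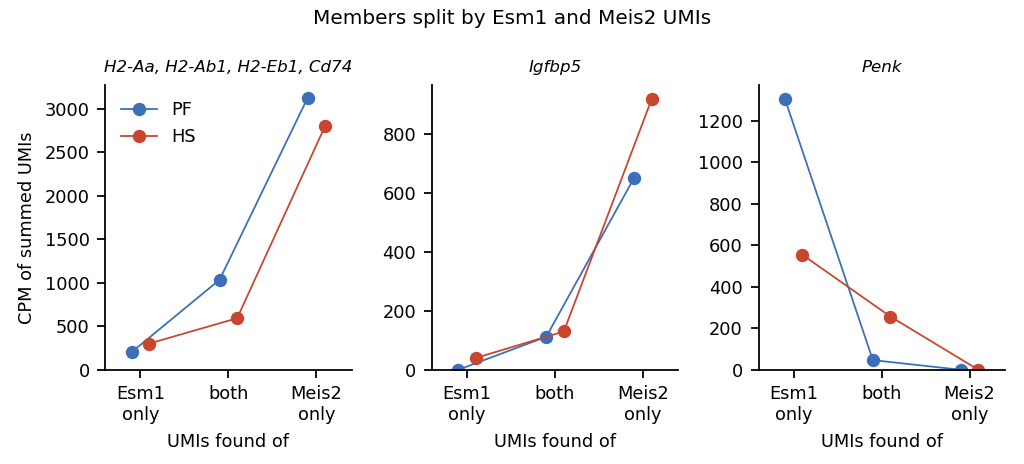
Levels in CPM of genes (y axis) in fenestrated cells with UMIs of Esm1 only, both genes, or Meis2 only (x axis), in PF and HS. Class II RNA and Igfbp5 are highest in Meis2-only cells of both libraries and Penk is highest in Esm1-only cells. A single cell held 51.7% of the Penk UMIs of HS. The split was chosen after the values were seen.

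Heat exposure was then compared with the control within fenestrated cells. With 1 library on each side there is no test, and each ratio of CPM carries an exact binomial interval that covers counting error only. A gene counted as higher or lower when its levels differed by 1.5-fold or more, with an interval that excluded 1 and at least 30 UMIs in the library with more. Of 4024 genes with enough UMIs, 245 were higher in HS (6.09%) and 194 lower (4.82%). In Plvap-0 cells, with far more UMIs, 492 of 14714 genes were higher (3.34%) and 373 lower (2.54%). Of the 245 genes higher in fenestrated cells, 11 were also higher in Plvap-0 cells and 1 was lower there, and of the 194 lower genes, 6 were also lower and 2 were higher. A single cell held more than 25% of the UMIs of 43 and 35 of these genes.

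Zbtb16, a transcription factor induced by glucocorticoids, was higher in HS. It held 35.7 CPM in PF, 190 in HS and 0 in QS, where 5 cells allow no close limit, and was found in 12 of 61 PF cells and 39 of 75 HS cells. The HS level was 5.32 times the PF level (3.24 to 9.19). Plvap-0 cells held 36.1, 195 and 8.26 CPM, a ratio of 5.42, so both cell groups had nearly equal levels in each of these libraries. Fkbp5, a chaperone that tempers the glucocorticoid receptor, held 11.3, 72.5 and 28.4 CPM, a ratio of 6.44 (2.71 to 18.6), against 2.51 in Plvap-0 cells. Tsc22d3, a further glucocorticoid target, held 248, 353 and 512 CPM and its ratio of 1.43 did not reach the threshold. In the list of glucocorticoid response genes, 2 of 13 were higher, beside 6.09% of all genes, and 0 lower, with a median log2 ratio of 0.12 against -0.01 over all genes.

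Chaperone genes leaned upward in HS. Of 22 heat shock and chaperone genes with enough UMIs, 8 were higher and 0 lower, beside 6.09% of all genes higher, and the list's median log2 ratio was 0.42 against -0.01 over all genes. Hsp90ab1, the constitutive cytosolic HSP90, held 2054 CPM in PF, 3513 in HS and 2843 in QS, a ratio of 1.71 (1.59 to 1.84) against 1.35 in Plvap-0 cells. Hsph1, a partner of HSP70, held 250, 459 and 142 CPM, a ratio of 1.84 (1.48 to 2.29) against 1.16. The others were Dnaja1 (1.57), Bag3 (1.57), Hspd1 (1.55), Hspb8 (1.79), Cacybp (1.57) and St13 (1.53). The inducible HSP70 gene Hspa1a was close to level, at 4170, 4491 and 4350 CPM. In Plvap-0 cells 0 of 26 chaperone genes passed either way, with a median of 0.22. Hspb8 was lower in HS when barcodes with any UMI of a gene of another cell type were left out, at -0.61 on the log2 scale.

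Cirbp, an RNA-binding protein induced by mild cold, was lower in HS, at 83.7 CPM against 156 in PF and 341 in QS, a ratio of 0.537 (0.365 to 0.781), and its ratio in Plvap-0 cells was 0.662. Its relative Rbm3 held 376, 264 and 227 CPM and did not reach the threshold. Of 6 circadian clock genes 2 were lower in HS, beside 4.82% of all genes, and 0 higher. Nr1d1, a repressor of the clock, held 63.8 CPM in PF and 24.2 in HS (ratio 0.379), and Bhlhe40 held 261 and 136 (ratio 0.520), where Plvap-0 cells gave 1.03.

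Of 24 interferon genes, 6 were lower in HS, 0 were higher and 18 passed neither way, beside 4.82% of all genes lower, with a median log2 ratio of -0.48 against -0.32 in Plvap-0 cells. Irf7, which drives the type I interferon response, held 342 CPM in PF, 151 in HS and 512 in QS, a ratio of 0.441 (0.335 to 0.576) against 0.628 in Plvap-0 cells. Ifi27l2a had a ratio of 0.288, Stat2 0.563, Gbp7 0.575, Ifit3 0.584 and Ifit2 0.587. Microglia genes summed to 680 CPM in PF and 389 in HS in fenestrated cells and 581 and 452 in Plvap-0 cells, and their part in the interferon values was not tested. The class I gene H2-K1 held 3185 CPM in PF, 3106 in HS and 3355 in QS, a ratio of 0.975 (0.911 to 1.04), where Plvap-0 cells gave 0.712 (0.704 to 0.719). Among 15 antigen presentation genes 0 passed either way.

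Some barrier genes were higher in HS than PF in the summed counts, on few cells. Of 15 transporter genes 6 were higher, beside 6.09% of all genes, 0 were lower and 9 passed neither way, with a median log2 ratio of 0.60, and Cldn5 had a ratio of 1.78. A single HS cell held 43.5% of the Cldn5 UMIs and 50% of the Slc2a1 UMIs. Without cells that had 10 or more Cldn5 UMIs the median was -0.01. Of 9 venous genes 5 were higher, beside the same 6.09%, and single HS cells held 62.9% of Vwf and 65.9% of Slc38a5 UMIs.

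Most permeable-vessel genes did not reach the threshold. Of 11 permeable-vessel genes 1 was higher in HS and 0 lower, beside 6.09% of all genes higher and 4.82% lower. Their median log2 ratio was 0.05. The higher gene was Igfbp3, with a ratio of 1.58 (1.45 to 1.72) against 1.41 in Plvap-0 cells. Esm1 did not reach the threshold, with a ratio of 0.685 (0.578 to 0.812). Kdr held 1418 and 1367 CPM, a ratio of 0.964, and 0 of 7 VEGF and angiopoietin genes passed. Among caveolar genes Ehd4 (0.612) and Cavin1 (0.633) were lower, with 2 of 7 in all.

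By size of ratio, the first genes higher in HS were Pou2f2, a POU transcription factor (7.68, 2.71 to 29.9), Fkbp5, Irf8, an interferon-regulatory factor also typical of microglia (3.52), Cebpz (3.15) and Pdzd2 (3.12). Chrm2, a muscarinic receptor, held 26.3 CPM in PF and 72.5 in HS (ratio 2.76), with 22 HS cells against 10 PF cells holding a UMI. The first genes lower were Gng10 (0.261), Gadd45a, a stress-response gene (0.279), Rasl11a (0.281), the microglial complement gene C1qc (0.301), Ackr3, a scavenging chemokine receptor (0.365), and the nuclear receptor gene Nr5a2 (0.379). The UMIs behind most of these genes are few, and their intervals are wide.

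Split by Esm1 and Meis2, Zbtb16 was higher in HS in Esm1-only cells, with a ratio of 10.2 (4.21 to 30), and in double-positive cells, with 4.36 (2.10 to 10.1). In Meis2-only cells its ratio was 6.63 (1.64 to 58.0), on 2 UMIs in PF and 23 in HS, below the minimum of 30. The few cells with neither gene held 61.8 CPM in PF and 78.7 in HS. Hsp90ab1 had ratios of 1.92 in Esm1-only, 1.93 in double-positive and 1.17 in Meis2-only cells. In Meis2-only cells its interval held 1 (0.990 to 1.39). Irf7 had ratios of 1.12 in Esm1-only, 0.174 in double-positive and 0.528 in Meis2-only cells. The differences between classes were not tested.

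**Figure D5:**
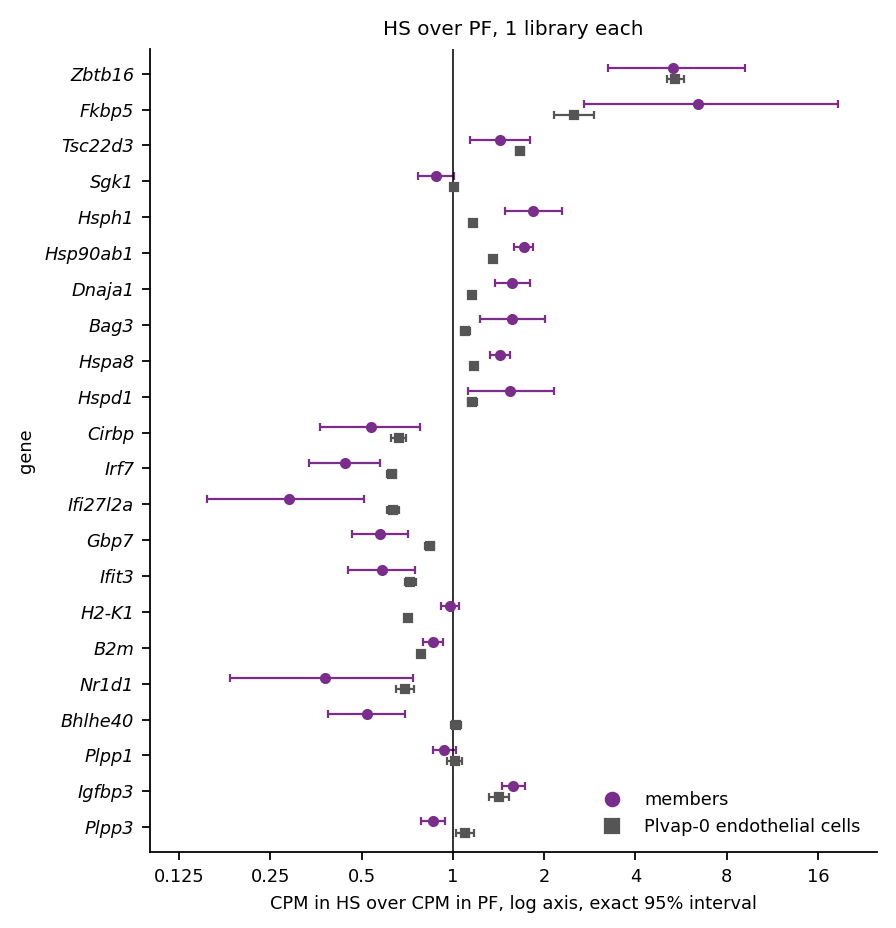
Ratio of HS to PF levels (x axis, log scale) for 22 genes (y axis) in fenestrated cells (members) and in Plvap-0 endothelial cells, with 95% counting intervals. Zbtb16 is 5.32 in members and 5.42 in Plvap-0 cells, Hsp90ab1 is 1.71 and 1.35, and H2-K1 is 0.975 and 0.712.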

How the data were processed

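Single-cell counts from 3 mouse hypothalamus libraries (PF, HS and QS) were used. The deposited matrices hold UMI counts per gene and barcode for 32285 features, made by the authors with Cell Ranger: 7.0.1 per the file headers, while 5.0.0, Seurat 3.1.2 and mm10 are listed in the submitters' processing notes. The sources used here do not say whether intronic reads were counted. Members and gene lists were chosen with earlier results of these data known. Barcodes with at least 500 UMIs and at most 20% mitochondrial UMIs were kept, and Scrublet in Scanpy 1.11.5 (Python 3.11.15) marked doublets, which were kept in. UMIs were summed per library and cell group. Fenestrated and Plvap-0 cells were compared with edgeR 4.0.16 (R 4.3.3; TMM, filterByExpr, library as block), leaving out the 14 genes of the rule, and with DESeq2 1.42.0 as an alternative. HS and PF were compared as CPM ratios with exact binomial intervals and no test. Named genes were the 12 highest and 12 lowest against Plvap-0 cells at 50 CPM or more, the 10 highest and 10 lowest HS to PF ratios with no cell over 25% of UMIs, and genes of the lists; not all of them are described. Venous-rule cells had 0 Plvap, 2 or more Vwf and 1 or more Slc38a5 UMIs, arterial-rule cells 2 or more of the 3 genes Bmx, Gkn3 and Sema3g, and capillary-rule cells 2 or more Mfsd2a UMIs with none of Vwf, Bmx or Gkn3. The edgeR and ratio steps were tested on simulated data. Gene positions are GRCm38, and promoter sequences are from RefSeq's table of GRCm38.p6. Depth is given with the results; PCR duplicates are removed by UMIs, and intervals cover counting error only.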

Additional observations from a re-analysis of the deposited data

Results flagged for a closer look

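Vcam1, Penk and Robo2 passed the HS to PF threshold in opposite directions in fenestrated and Plvap-0 endothelial cells, and the difference between the cell groups was not tested. Vcam1, a leukocyte adhesion receptor, held 52.6 CPM in PF and 100 in HS in fenestrated cells (ratio 1.91, 1.19 to 3.13), where 1 cell held 50% of the PF and 48.1% of the HS UMIs. In Plvap-0 cells it held 540 and 327 CPM (ratio 0.605).

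Penk held 501 and 219 CPM in fenestrated cells (ratio 0.438, 0.349 to 0.546), with 1 cell at 29.2% and 51.7% of the UMIs, and 0.605 and 1.39 CPM in Plvap-0 cells (ratio 2.29, 1.29 to 4.24). Robo2, an axon guidance receptor, held 93.9 and 39.1 CPM in fenestrated cells (ratio 0.416), with 1 cell at 40% and 23.8%, and 1.04 and 2.20 CPM in Plvap-0 cells (ratio 2.11).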

How the results depend on the processing

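No paired analysis was possible because each condition has 1 library and the libraries share no animal or batch that the labels name. Leaving out 1 of the 2 libraries of the edgeR fit leaves no residual degrees of freedom, so it was run with QS added after seeing the data; the planned fits without PF or HS alone could not be fitted. Genes higher in fenestrated cells then ranged from 517 to 628 and lower genes from 369 to 490, and without PF the counts were 517 and 369. Lower genes were 424 with DESeq2, and 481 of only 7562 genes tested with Plvap-0 cells matched on UMIs. The share of fenestrated cells was 0.301% in PF and 0.406% in HS when other-type genes were excluded at 1 UMI, and 0.638% in PF after thinning to 3000 UMIs. With no minimum of UMIs, 433 genes were higher and 382 lower in HS of 15806 compared, in place of 4024; excluding other-type genes at 1 UMI gave 111 higher genes in fenestrated cells and 267 in Plvap-0 cells, from fewer cells. The causes of the other shifts were not tested. Over 10 alternatives the log2 fold change of Esm1 ran from 10.01 to 11.18, and the log2 HS to PF ratio of Zbtb16 from 1.95 to 2.53 and of Hsp90ab1 from 0.65 to 0.79. Of 1648 gene values recomputed for HS against PF, 1529 kept their call or lack of a call. A further 14 reversed, with a change of sign in a gene called in either setting. Of 1099 against Plvap-0 cells, 1061 kept their call or lack of a call and 0 reversed. A change of sign in a gene called in neither setting did not count as a reversal. The call of Lmntd1 was lost with DESeq2 (adjusted p = 0.30).

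Reversed HS to PF values rested on few cells. Excluding other-type genes at 1 UMI gave log2 ratios of -0.31 for Cldn5, -1.50 for Lsr, -0.11 for Slc2a1, -0.83 for Slco1c1, -1.44 for Slco1a4, -1.37 for Il1r1 and -0.61 for Hspb8. Leaving out cells with 10 or more Cldn5 UMIs, added after seeing the data, gave -1.28 for Lsr, -1.96 for Slco1c1, -1.01 for Slco1a4 and -0.61 for Il1r1, and list medians of -0.0207 for glucocorticoid response and -0.0140 for barrier transporters. A mean of CPM per cell gave -0.43 for Slco1a4, -0.26 for Il1r1 and a median of 0.0248 for immediate early genes, and leaving out the deepest cell of each library gave -0.0705 for Slco1a4. In QS 5 cells with 35173 UMIs allow no comparison beyond the share.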
